A study of Mus musculus with 27 samples.

Results

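The comparison described here is the difference between 2 gains in DNA methylation: the rise from D0 to D2 in a Tet knockout line of mouse embryonic stem cells, less the rise over the same days in its parental line. It was computed in the 422141 autosomal windows with a value in all 27 libraries, of 453245 windows in the deposited table. Whole-genome bisulfite sequencing had been made of naive cells held in 2i/LIF medium on D0 and then converted to epiblast-like cells over the next days. In TET_KO all 3 Tet genes (Tet1, Tet2, Tet3) are knocked out, and TET_WT is the wild-type line it was derived from. The 4 groups compared were TET_WT embryonic stem cells on D0, TET_WT epiblast-like cells on D2, TET_KO embryonic stem cells on D0 and TET_KO epiblast-like cells on D2, with 3 libraries each. D1 libraries of both lines served for the steps between, and DNMT_WT, the parent of another knockout line, gave a second wild-type course. Each genotype is represented by 1 line, so a change that arose in that line and the Tet knockout cannot be told apart. Whether the 3 replicates came from separate cultures is not stated, so a p-value here refers to the scatter among libraries, which may be technical.

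TET enzymes oxidise 5-methylcytosine to 5-hydroxymethylcytosine and further products, which opens a path back to unmethylated cytosine. Naive embryonic stem cells in 2i hold little methylation, and the de novo enzymes Dnmt3a and Dnmt3b raise it as cells leave the naive state, while Dnmt1 with Uhrf1 copies it at replication. Bisulfite conversion reads both 5-methylcytosine and 5-hydroxymethylcytosine as methylated. The windows are named as holding 100 CpGs, so a short window is rich in CpG and a long window poor. Their median length was 4949 bp on GRCm38, with 5th and 95th percentiles of 1394 and 11288 bp. The table holds percentages without read counts, so depth cannot be read from it and values carry no counting interval. Expression markers of the cell types, and the loss of the Tet genes, cannot be checked in such a table.

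Gains were expressed on 2 scales, since the lines did not start from the same level. On the first, a gain is the D2 percent less the D0 percent, in percentage points. On the second, that gain is divided by the part unmethylated on D0 (100 less the D0 percent), and gives the share of this part that became methylated. A window or gene was called at an adjusted p under 0.05 from limma and a difference of at least 10 points, or of 10 percentage points of the unmethylated part. "Less" and "more" below refer to the gain of TET_KO against that of TET_WT. Levels are means ± SD of 3 libraries, and differences are given ± SE.

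Over the autosomal genome the knockout gained fewer percentage points than its parent, while the shares of what was left overlapped between libraries. TET_WT libraries stood at 24.9, 25.7 and 25.5% on D0 and at 51.8, 55.6 and 50.7% on D2. TET_KO libraries stood at 51.4, 51.0 and 53.1% on D0 and at 71.1, 71.9 and 69.6% on D2. The knockout thus began near the level at which the parent ended, and every knockout library lay above every parental library of the same day. The gain was 27.3 points in TET_WT and 19.02 in TET_KO, a difference of -8.30 ± 1.77 points. The 9 gains that the 3 D0 and 3 D2 libraries of a line allow ran from 25.01 to 30.7 points in TET_WT and from 16.5 to 20.9 in TET_KO and did not overlap (two-sided exact permutation p = 0.1, the smallest that 3 against 3 libraries allow).

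As a share, TET_WT methylated 36.6% and TET_KO 39.5% of the part unmethylated on D0, a difference of 2.87 ± 2.57 percentage points. The 9 possible values overlapped, with 33.6 to 40.9% in TET_WT and 35.2 to 42.6% in TET_KO (two-sided exact permutation p = 0.3). Replicate 2 of TET_WT on D2 stood above the other parental libraries, with a gain of 30.2 points over the D0 mean against 26.4 and 25.3. Without it the differences were -6.84 points and 4.82 percentage points of share. Weighted by window length, which gives CpG-poor DNA more room, the share difference was 7.33 percentage points. DNMT_WT, which began at 3.17% ± 0.0654, gained 46.7 points, a share of 48.3%.

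The lines separated in points in the step from D1 to D2. From D0 to D1 the lines gained 7.84 and 7.51 points, a difference of -0.33 ± 1.24 (two-sided exact permutation p = 0.8). From D1 to D2 they gained 19.5 and 11.5 points, a difference of -7.97 ± 1.94 with no overlap between libraries (exact permutation p = 0.1). The share had another course. In the first step it was 10.5% in TET_WT and 15.6% in TET_KO, a difference of 5.08 ± 1.89 percentage points without overlap of the 9 possible values (7.54 to 12.4% and 12.6 to 18.5%, exact permutation p = 0.1). In the second step it was 29.2% and 28.3%, which overlapped (exact permutation p = 0.9).

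**Figure D1:**
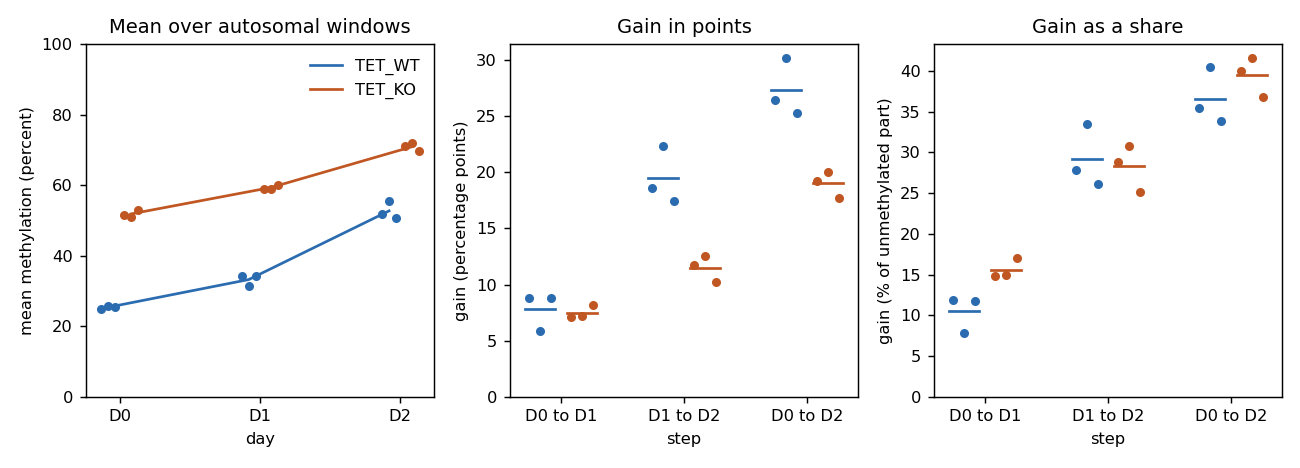
Left, mean methylation of the autosomal windows in percent by day, with a point for each library and a line through the group means of TET_WT and TET_KO. Middle and right, the gain of each later library over the mean of the earlier day, in percentage points and as a percent of the part unmethylated on the earlier day, with bars at the means. From D0 to D2 the TET_KO points lie below the TET_WT points on the middle axis (19.02 against 27.3 on average), and the lines overlap on the right axis (39.5% against 36.6%).

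In single windows the split between the scales was sharper. The knockout gained less in 190891 windows, which is 45.2% of those tested, and more in 9313, or 2.21%. As a share it gained less in 3730 windows (0.884%) and more in 70134 (16.6%). The median window differed by -8.98 points and by 4.49 percentage points of share. Of the windows that gained fewer points, 3681 also gained a smaller share and 838 a larger share, while 186370 were not called on the share scale. All but 37 of the 9313 windows with more points also had a larger share. In 171410 of the 190891 windows with less gain and in 7226 of the 9313 with more, the 9 possible gains of one line did not overlap those of the other. Over all 422141 windows, 195070 (46.2%) were apart on the side of less and 12243 (2.90%) on the side of more. The calls rest on the same values, so the lack of overlap is no separate evidence for them. Without TET_WT D2 replicate 2, 165186 windows had less and 16409 had more. The windows with a smaller share fell to 1794, 1865 or 1885 without a single D0 library of TET_WT (replicates 1, 2 and 3) and to 2367 without TET_KO D0 replicate 3, and reached 5336 at most. Those with a larger share numbered 47893 to 104543 when any 1 library was left out.

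These counts refer to zero difference in points, while the whole distribution was shifted. The library medians differed in gain by -9.98 points. With each library less its own median, 33738 windows had less and 78209 more, so the direction of the majority turned. Centring takes the same shift from every window, so windows that hardly changed in either line can count as more. Nearly all windows rose in both lines: TET_WT rose by at least 10 points in 93.6% of windows and TET_KO in 92.2%, and 386848 windows (91.6%) rose in both. A gain in TET_WT without a called gain in TET_KO was found in 8423 windows, with medians of 12.5 and 29.3% in TET_WT and of 30.5 and 38.6% in TET_KO. The reverse was found in 2293 windows, with 11.4 and 20.1% in TET_WT and 29.0 and 49.3% in TET_KO. In 24566 windows neither line had a called change, and these were short (median 777 bp) and almost unmethylated, at 0.377 and 1.16% in TET_WT and 1.26 and 2.26% in TET_KO.

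The differences varied with window length, the inverse of CpG density, and were most negative at 2 to 4 kb. Classes by length, gene overlap and chromosome hold the same windows, yet limma pooled their spread as if they were separate. Its p-values for all of these classes are therefore likely too small. At 2 to 4 kb the exact permutation p for points was 0.1, the smallest possible. In windows of 2 to 4 kb the gain was 31.3 points in TET_WT and 18.2 in TET_KO, a difference of -13.1 ± 1.73 (limma over class means, adjusted p = 2.9e-11). In windows of 4 to 8 kb it was 30.2 and 20.3 points, a difference of -9.92 ± 1.62 (limma, adjusted p = 5.4e-08). In windows of 8 to 16 kb the lines gained 22.4 and 22.4 points, with a difference of -0.05 ± 2.07 (adjusted p = 0.98). Above 16 kb the gain was 18.98 points in TET_WT and 22.6 in TET_KO, 3.59 ± 1.94 higher in the knockout (limma, adjusted p = 0.071). This last difference passed the test when TET_WT D2 replicate 2, TET_KO D0 replicate 3 or TET_KO D2 replicate 3 was left out, at 5.38, 4.25 and 4.40 points. Windows under 1 kb gained 1.18 and 1.01 points (adjusted p = 0.096), and windows of 1 to 2 kb 15.1 and 9.71 (limma, adjusted p = 7.6e-05). The difference under 1 kb, -0.17 points, passed without TET_KO D2 replicate 2, at -0.23. Less the shift of the library medians (-9.98 points), the differences were 9.82 points under 1 kb, 4.56 at 1 to 2 kb, -3.07 at 2 to 4 kb, 0.06 at 4 to 8 kb, 9.94 at 8 to 16 kb and 13.6 above. On that footing the class of 2 to 4 kb alone lay below 0. Windows under 1 kb gained only 1.18 and 1.01 points, so their 9.82 is nearly all the subtracted shift.

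As a share the classes above 8 kb differed past the test. In windows of 8 to 16 kb TET_WT methylated 28.8% of the part unmethylated on D0 and TET_KO 43.0%, with 26.97, 33.5 and 26.0% in the D2 libraries of TET_WT and 43.4, 45.6 and 40.0% in those of TET_KO. No parental library reached a knockout library (limma on the unmethylated part, adjusted p = 6.2e-05). Above 16 kb the shares were 23.1 and 38.4% (limma, adjusted p = 6.2e-08). In windows of 2 to 4 kb they were 42.8 and 41.1% (adjusted p = 0.58), and in windows of 4 to 8 kb 42.3 and 46.9% (adjusted p = 0.21). The last became a call without TET_WT D2 replicate 2 or TET_KO D2 replicate 3, at 6.79 and 6.14 percentage points. Windows of 1 to 2 kb had shares of 18.1 and 14.5% (adjusted p = 0.054) and passed without TET_WT D2 replicate 2, TET_WT D2 replicate 3 or TET_KO D2 replicate 2, at -2.66, -4.31 and -4.08 percentage points. In 8 to 16 kb windows the second step carried the larger part, with 22.3% in TET_WT and 33.5% in TET_KO against 8.32 and 14.3% in the first (exact permutation p = 0.1 in each step, the smallest possible).

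The distance between the lines varied with length too. TET_KO lay 28.8 points above TET_WT on D0 and 15.7 on D2 in windows of 2 to 4 kb. It lay 25.8 points above on D0 and 25.8 on D2 in windows of 8 to 16 kb, and 23.2 and 26.8 above in windows over 16 kb. DNMT_WT had a share of 55.6% in windows of 2 to 4 kb, 37.7% in those of 8 to 16 kb and 31.1% above 16 kb, so a lower share in long windows was measured in both wild-type lines. The calls followed the class means. Of windows of 2 to 4 kb 66.8% had less in points and 2.69% more as a share, whereas of windows of 8 to 16 kb 13.7% had less in points, 10.2% more in points and 54.4% more as a share. Above 16 kb 66.4% had more as a share.

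**Figure D2:**
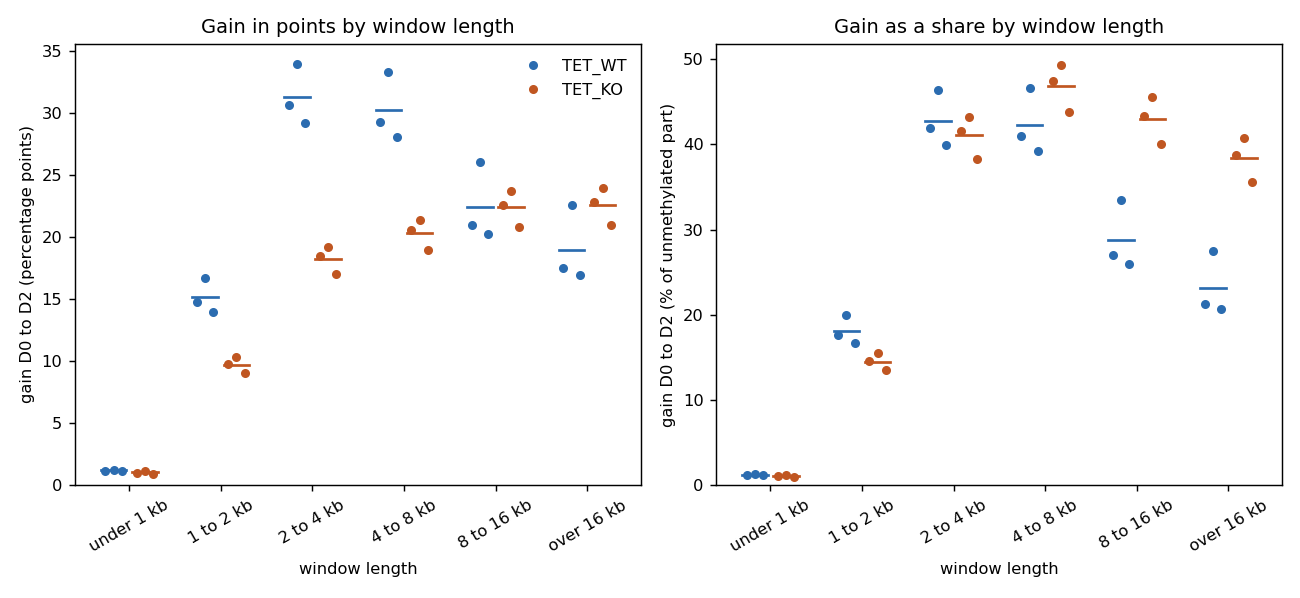
Gain from D0 to D2 in 6 classes of window length, in percentage points (left) and as a percent of the part unmethylated on D0 (right). Points are the 3 D2 libraries of a line less the D0 mean, and bars are means. The lines lie apart in points at 2 to 4 kb (31.3 against 18.2) and apart in share at 8 to 16 kb (28.8% against 43.0%).

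Place relative to genes was compared next. Windows overlapping protein-coding genes gained 28.2 points in TET_WT and 18.1 in TET_KO, and windows outside them 26.4 and 20.04, and the shares were 37.2 and 36.7% in genes and 35.9 and 42.7% outside. Windows in genes were shorter, with a median of 4291 bp against 5822. At like length the median was lower in genes in the 4 classes from 2 kb upward, with -14.2 points in genes and -12.0 outside at 2 to 4 kb and -1.73 and 1.75 at 8 to 16 kb. In the shorter classes the order was the other way, with -2.80 points in genes and -4.20 outside at 1 to 2 kb and 0.043 and -0.12 under 1 kb. Outside genes the share difference, 6.75 percentage points (adjusted p = 0.12), passed the test without TET_WT D2 replicate 2 or TET_KO D2 replicate 3, at 8.89 and 8.19. Whether genes differ from other DNA at equal length was not tested. Each of the 19 autosomes had less gain in points, from -10.5 on chromosome 11 to -6.53 on chromosome 14, with adjusted p of 0.00078 or less in limma. As a share none of the 19 passed the test, with differences from -0.459 to 6.22 percentage points and the smallest adjusted p at 0.18.

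**Figure D3:**
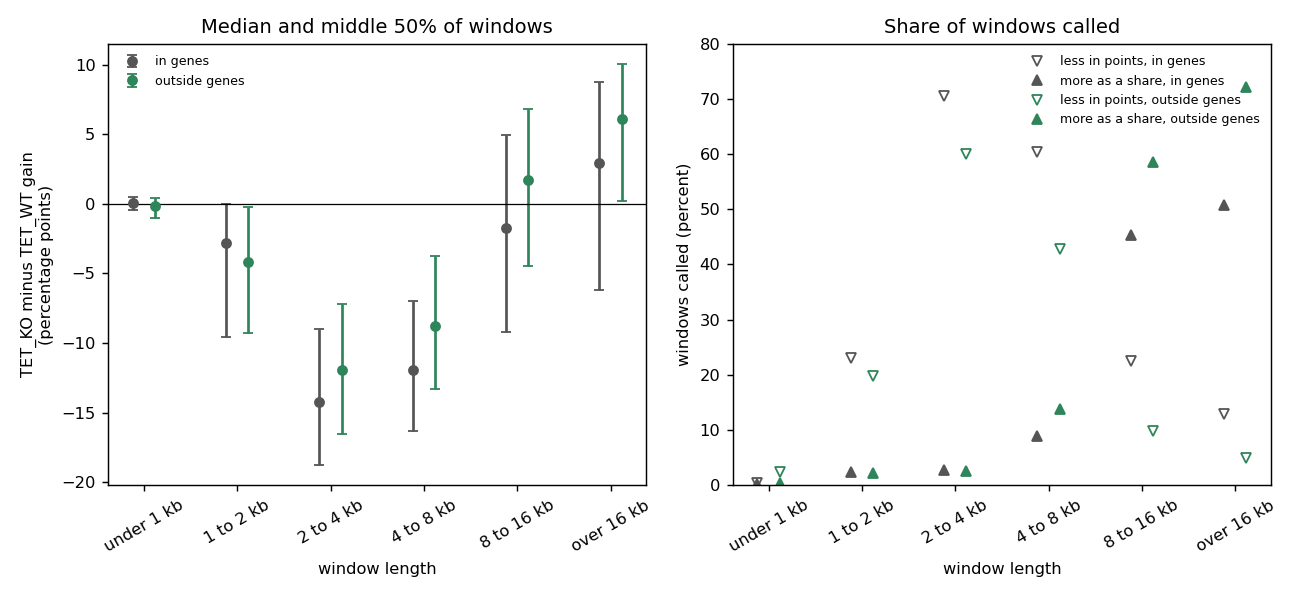
Left, difference of gains (TET_KO minus TET_WT, percentage points) by window length, with the median and the middle 50% of windows in and outside protein-coding genes. Right, percent of windows called with less gain in points (open triangles) and with more gain as a share (filled triangles). The median lies lowest at 2 to 4 kb in genes (-14.2) and rises above 0 outside genes at 8 to 16 kb (1.75), where 58.6% of windows had a larger share.

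Starting level was examined within each line. Windows were binned by the D0 level in replicate 1, and the gain was taken from the other D0 libraries, so that no library served for both. The windows of a bin are not the same in the 2 lines, and the values are given without a test. TET_WT windows starting between 20 and 30% gained 30.3 points ± 2.95 (144901 windows), and TET_KO windows in that bin gained 16.4 ± 1.18 (12923 windows). Between 40 and 50% the gains were 29.5 ± 2.06 and 21.8 ± 1.42 points, and between 60 and 70% they were 18.2 ± 1.64 and 18.9 ± 1.10. Low knockout windows thus gained fewer points than low parental windows, and in the upper bin the gains lay within 1 SD of each other. Only 21077 windows were under 10% in both lines, and 222 to 748 lay in each of the 7 bins from 10 to 80%. In these the left-out D0 libraries still stood 8.15 to 11.1 points higher in TET_KO, so the start was not matched there.

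Adjoining windows called in the same direction were joined into runs. Of 55244 runs with less gain 22290 were single windows and 12302 held at least 5, and of 6270 runs with more gain 4544 were single and 145 held at least 5. With 45.2% of windows called with less and 2.21% with more, the lengths of runs are a description. The longest run with less gain in TET_KO held 100 adjoining windows over 411409 bp of chromosome 11, 67973316 to 68384724, which overlap Ntn1, the gene of the axon guidance cue netrin 1, and Stx8, a syntaxin of late endosomes. Its mean went from 30.0 to 71.2% in TET_WT and from 65.0 to 84.2% in TET_KO. The next runs lay in Ptprg with 66 windows, in Sipa1l1 and in Etv6 with 59 each, and in Msi2 with 57. Runs with more gain were shorter, with 14 windows on chromosome 14, 109941585 to 110116410, 14 on chromosome 5, 79341811 to 79517375, and 11 on chromosome 1, 27519951 to 27670862. None of these 3 overlaps a protein-coding gene, and their median window lengths were 10553, 12156 and 13005 bp. In the run on chromosome 14 TET_WT went from 12.1 to 20.5% and TET_KO from 36.3 to 59.1%.

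The window with the largest deficit in points lay in Acly, which encodes the enzyme that makes cytosolic acetyl-CoA from citrate, at chromosome 11, 100497519 to 100499740. Its TET_WT libraries went from 22.1, 21.8 and 20.98% on D0 to 75.5, 87.3 and 74.1% on D2, and its TET_KO libraries from 81.2, 78.9 and 76.0% to 83.7, 86.9 and 83.6%. The knockout was already near its D2 level on D0, and the difference of gains was -51.2 ± 3.90 points (limma, adjusted p = 4.1e-06). A window in Gltp, the gene of a glycolipid transfer protein, differed by -43.7 ± 3.92. The largest excess was at chromosome 7, 33330969 to 33346233, outside genes. There TET_WT libraries had 32.9, 20.9 and 24.7% on D0 and 24.2, 27.7 and 24.8% on D2, and TET_KO libraries had 29.1, 18.8 and 25.3% on D0 and 42.6, 55.8 and 60.5% on D2. The lines overlapped on D0 and were apart on D2, with a difference of gains of 29.2 ± 5.29 (limma, adjusted p = 2.5e-04).

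At the level of genes, taken as the mean of the windows overlapping the gene body, the knockout gained less in 9649 of 20355 genes (47.4%) and more in 221 (1.09%). As a share it gained less in 315 genes (1.55%) and more in 2648 (13.0%). The median gene differed by -9.63 points and by -1.80 percentage points of share, and the latter was -0.43 without TET_WT D2 replicate 2, -0.82 without TET_KO D2 replicate 3, -1.18 without TET_KO D0 replicate 3 and -2.83 without TET_WT D2 replicate 3. With each library less its median, 172 genes had less and 2234 more. Without TET_WT D2 replicate 2, 7703 genes had less and 434 more in points, and 122 had less and 3407 more as a share. The smaller share also moved without TET_WT D2 replicate 3 (815 genes), TET_KO D2 replicates 2 and 3 (589 and 189) and TET_KO D0 replicates 2 and 3 (498 and 197), each left out alone. In the window at the annotated start, a measure added after the data were seen, 2165 of 15902 genes (13.6%) had less and 185 (1.16%) more, with a median difference of -0.95 points. As a share 97 starts (0.610%) had less and 1285 (8.08%) more, in all 1382 or 8.69%.

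Promoter sequence is shown for a few genes of unlike CpG content. The 250 bases before the RefSeq start (GRCm38.p6, 5′ to 3′, CpG sites in capitals) are shown for 5 genes, chosen after their values were seen because their start windows gave different results. They lie at chr5:75574737-75574986, chr6:122707239-122707488, chr2:32646345-32646594 and chr11:121145893-121146142 on the plus strand and at chr2:86538914-86539163 on the minus strand.
Kit: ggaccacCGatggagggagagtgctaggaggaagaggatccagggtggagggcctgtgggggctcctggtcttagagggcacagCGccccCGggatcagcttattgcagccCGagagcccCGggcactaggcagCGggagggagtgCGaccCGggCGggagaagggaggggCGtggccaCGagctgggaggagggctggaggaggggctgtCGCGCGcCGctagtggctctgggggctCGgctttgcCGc
Nanog: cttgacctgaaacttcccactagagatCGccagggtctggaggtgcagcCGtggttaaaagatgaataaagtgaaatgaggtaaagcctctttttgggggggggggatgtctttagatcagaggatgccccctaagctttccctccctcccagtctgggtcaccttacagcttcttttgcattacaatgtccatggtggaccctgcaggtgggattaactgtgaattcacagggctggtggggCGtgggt
Eng: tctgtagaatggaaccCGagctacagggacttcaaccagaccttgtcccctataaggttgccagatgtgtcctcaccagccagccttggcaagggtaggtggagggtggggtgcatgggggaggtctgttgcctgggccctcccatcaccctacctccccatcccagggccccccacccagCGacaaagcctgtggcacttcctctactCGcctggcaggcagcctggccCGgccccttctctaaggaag
Tex19.1: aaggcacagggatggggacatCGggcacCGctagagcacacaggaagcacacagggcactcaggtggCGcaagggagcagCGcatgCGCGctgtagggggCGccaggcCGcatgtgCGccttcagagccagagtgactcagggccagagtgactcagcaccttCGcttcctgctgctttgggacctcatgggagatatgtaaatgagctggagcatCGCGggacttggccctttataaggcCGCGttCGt
Olfr1079: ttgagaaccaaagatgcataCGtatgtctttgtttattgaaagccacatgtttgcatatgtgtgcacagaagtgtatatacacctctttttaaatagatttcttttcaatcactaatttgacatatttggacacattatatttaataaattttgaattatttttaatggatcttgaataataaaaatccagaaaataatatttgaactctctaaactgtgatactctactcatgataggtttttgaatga
In the same order they hold 17, 3, 4, 15 and 1 CpG sites. The dinucleotide CG reads the same on both strands.

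Kit, the receptor of stem cell factor, had the sequence richest in CpG of these 5, and its start window of 730 bp stayed unmethylated, at 0.131% ± 0.226 and 0.714% ± 0.924 in TET_WT and 0.571% ± 0.237 and 0.409% ± 0.379 in TET_KO on D0 and D2. Nanog, a core factor of pluripotency, had 0.0736, 0.146 and 0.129% on D0 and 3.95, 6.39 and 5.35% on D2 in TET_WT. In TET_KO its start window had 1.87, 1.68 and 1.29% on D0 and 23.0, 23.0 and 21.8% on D2. Both lines began nearly unmethylated, and every TET_KO library of D2 lay above every TET_WT library. The gain was 5.11 points in TET_WT and 21.003 in TET_KO, a difference of 15.9 ± 0.983 (limma over start windows, adjusted p = 1.5e-05). Over its body Nanog gained 24.4 and 25.6 points, a difference of 1.22 ± 1.87 that did not pass the test (adjusted p = 0.55).

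The start windows of Eng and Tex19.1 gained less in the knockout. Eng encodes endoglin, a co-receptor of TGF-beta signals on endothelium, and went from 13.1, 15.8 and 14.7% to 54.1, 57.1 and 54.4% in TET_WT and from 43.4, 42.8 and 43.1% to 63.5, 62.0 and 62.9% in TET_KO. The difference of gains was -20.9 ± 2.07 points (limma, adjusted p = 3.2e-04). Tex19.1, a germ cell gene that restrains transposons, went from 20.4, 22.7 and 19.4% to 54.4, 52.4 and 50.9% in TET_WT, and from 29.5, 26.6 and 29.9% to 45.7, 41.8 and 41.3% in TET_KO. The knockout thus began above its parent and ended below it in every library, with shares of 40.1% in TET_WT and 19.996% in TET_KO. In Olfr1079, an olfactory receptor gene, the start window of 9963 bp went from 10.6% ± 0.888 to 24.5% ± 2.44 in TET_WT and from 30.5% ± 1.501 to 57.8% ± 3.28 in TET_KO, a difference of 13.4 ± 2.75 points (limma, adjusted p = 0.0056).

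Over all starts the difference was set against the CpG content of the promoter. The RefSeq table of 300 bases around a start, 250 before and 50 after, gave a median of 7 CpG sites in 27025 promoters, 94.2% of them with at least 1 and 26.8% with 20 or more. Start windows of the 5894 genes with 20 or more CpG sites had median levels of 0.299 and 0.579% in TET_WT and 0.598 and 0.922% in TET_KO on D0 and D2, and 1.12% of them had less and 0% more gain. With 10 to 19 sites the median difference was -1.43 points and 7.55% of 3443 genes had less, and with 6 to 9 sites it was -7.30 points and 33.2% of 1588 genes had less. With 3 to 5 sites the median difference was -8.17 points and 36.6% of 2064 genes had less. With 0 to 2 sites it was -1.80 points over 2913 genes, with median shares of 30.0 and 42.9%, and 33.4% of them had more as a share. The median difference was thus most negative at 3 to 5 sites and nearer 0 on either side. In the order given, from 20 or more sites to 0 to 2, start windows had median lengths of 639, 1799, 3297, 4800 and 8927 bp, so promoter sequence and window length moved together and were not separated.

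Genes of the naive network were counted first. In points 10 of 29 (34.5%) had less and 0 more, against 47.4 and 1.09% of all genes, with a median of -6.26 against -9.63. Centred on library medians 0 had less and 5 more, against 172 and 2234 of all 20355 genes. As a share 1 had less and 0 more, against 1.55 and 13.0% of all genes, with a median of -0.73 against -1.80. That median, taken without TET_WT D2 replicate 2, was 0.16 against -0.43. In that fit 1 gene had less and 1 more, against 122 and 3407 of all 20355 genes. Nr5a2, a nuclear receptor of the naive state, went from 23.7 to 58.9% in TET_WT and from 55.7 to 71.0% in TET_KO, a difference of -19.9 ± 1.80 points with shares of 46.1 and 34.6%. It was the 1 naive gene called on both scales. Lifr, the receptor subunit for LIF, differed by -19.03 ± 2.09, and Tfcp2l1, a transcription factor downstream of LIF, by -18.9 ± 2.05. Pecam1, an adhesion molecule of stem cells and endothelium, differed by -18.8 ± 1.96, and its shares were 51.9 and 54.7%. Esrrb, an orphan nuclear receptor, gained 35.5 and 23.3 points, a difference of -12.1 ± 2.27, with shares of 42.1 and 41.8% that did not differ past the test (adjusted p = 0.88). In their shortest, most CpG-dense window Nr5a2, Tfcp2l1 and Esrrb differed by 0.187, 0.909 and 0.323 points. None of these passed the test (limma, adjusted p = 0.87, 0.65 and 0.83). The window of Tfcp2l1, 718 bp at its start, stood at 1.09 and 0.545% in TET_WT and 0.401 and 0.767% in TET_KO. With hardly a gain in either line, no deficit could show there.

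Of 29 formative and primed epiblast genes 8 (27.6%) had less and 0 more in points, below the 47.4% of all genes with less. Leaving out TET_WT D2 replicate 2 gave 5 with less, against 7703 of all 20355 genes. When centred on library medians 0 had less and 5 more, against 172 and 2234. Tead2 of the Hippo pathway differed by -14.1 ± 2.37 points, Lef1, an effector of Wnt signalling, by -13.9 ± 1.89, Cdh2, the N-cadherin gene, by -12.6 ± 1.98, and Grhl2, an epithelial transcription factor, by -12.4 ± 1.89. Their share differences, from -5.32 percentage points in Lef1 to 0.497 in Cdh2, did not pass the test. Spry4, a feedback inhibitor of FGF signalling, had the 1 share call of the list (3.45% with more, against 13.0% of all genes). It went from 9.40 to 19.8% in TET_WT and from 37.2 to 51.0% in TET_KO, with shares of 11.5 and 22.05% (limma, adjusted p = 8.7e-04), while the difference in points was 3.46 ± 1.52. The share call was lost without TET_KO D0 replicate 1 or TET_KO D2 replicate 2, when the difference was 9.71 and 9.77 percentage points.

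Germline genes had less in 26 of 46 cases (56.5%, against 47.4% of all genes) and more in 0, with a median of -10.8 points. Without TET_WT D2 replicate 2, 21 had less, against 7703 of all 20355 genes. Centred on library medians the list had a median of -0.85 points against 0.36 in all genes. In that fit 0 had less and 1 more, against 172 and 2234 of all genes. Tex19.1 led over its body as at its start, with 20.5, 21.6 and 20.8% on D0 and 52.1, 55.2 and 52.0% on D2 in TET_WT, against 28.1, 26.7 and 27.7% and then 43.1, 40.4 and 40.9% in TET_KO. Its difference was -18.1 ± 1.81 points, and over gene bodies it was the 1 germline gene with a smaller share (2.17%, against 1.55% of all genes). In start windows 4 of 37 germline genes had a smaller share and 0 a larger, against 0.610 and 8.08% of all starts. The median share difference at starts was -2.76 percentage points, against 0.16 over all starts. Dpep3, a testis dipeptidase gene, differed by -18.0 ± 2.56 points, and Tdrd12 and Tdrd1 of the piRNA pathway by -16.2 ± 1.95 and -15.7 ± 2.32. Over gene bodies 4 germline genes (8.70%, against 13.0% of all genes) had a larger share. Among them Pdha2, a testis subunit of pyruvate dehydrogenase, had 35.2 and 50.8%. This call was lost on leaving out any 1 of 9 of the 12 libraries, with differences from 12.2 to 15.9 percentage points and adjusted p from 0.053 to 0.079 in limma.

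Among 42 imprinted loci, where 1 parental copy is normally methylated, 18 (42.9%, against 47.4% of all genes) had less and 0 more in points, at a median of -9.54. Without TET_WT D2 replicate 2, 13 had less, against 7703 of all 20355 genes. Mirg and Rtl1, both of the Dlk1-Dio3 cluster, differed by -18.1 ± 2.21 and -15.7 ± 2.21 points without a share call, Sgce by -16.5 ± 1.92 and Plagl1, a zinc finger gene, by -15.4 ± 1.82. In Peg13, a non-coding RNA gene, the knockout was lower than its parent on both days. TET_WT libraries had 42.1, 45.8 and 40.9% on D0 and 65.1, 70.6 and 60.6% on D2, and TET_KO libraries 30.6, 31.2 and 34.9% and then 43.8, 44.4 and 44.1%. The shares were 39.4 and 17.5% (limma, adjusted p = 0.0038). Peg3, a paternally expressed zinc finger gene, had shares of 30.6 and 20.2%. Its share call was lost without TET_KO D0 replicate 3, TET_KO D2 replicate 1, TET_WT D0 replicate 2 or TET_WT D2 replicate 2, with differences from -9.88 to -9.16 percentage points. Its start window stood at 18.9 and 28.6% in TET_WT and at 6.50 and 7.27% in TET_KO.

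Haematopoietic and endothelial regulators, the lineage named in the title of the series, had less in 24 of 54 cases (44.4%, against 47.4% of all genes) and more in 0, with a median of -9.09 points. Without TET_WT D2 replicate 2 the count was 17, against 7703 of all 20355 genes. Kit went from 21.1, 20.96 and 23.1% to 61.3, 64.2 and 58.5% in TET_WT, and from 57.8, 57.7 and 59.5% to 76.4, 76.2 and 74.8% in TET_KO, so that the parent on D2 stood near the D0 level of the knockout. Its difference was -22.2 ± 2.01 points (limma, adjusted p = 1.2e-06). Etv6, an ETS factor of blood stem cells, differed by -22.1 ± 1.88 and Eng by -19.2 ± 1.87. As a share 0 of the 54 had less and 4 (7.41%) more, against 1.55 and 13.0% of all genes. Ptprc, which encodes the leukocyte antigen CD45, had shares of 33.6 and 48.0%, and Hbb-bh1, an embryonic globin gene, 23.2 and 39.5%.

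Neuroectoderm and Hox genes were among the lists with the smallest gains, at medians of 7.56 and 7.08 points in TET_WT and 5.005 and 6.71 in TET_KO. Of 29 neuroectoderm genes 1 had less, Tubb3, a neuronal tubulin gene, by -11.2 ± 2.32 points, and this call was lost without TET_WT D2 replicate 2 or TET_KO D2 replicate 3, at -9.14 and -9.92 points. Lhx9, a LIM homeobox gene, stood apart in level. It had 6.93, 7.78 and 7.53% on D0 and 17.1, 17.7 and 16.4% on D2 in TET_WT, and 47.4, 48.2 and 48.5% and then 61.9, 60.4 and 60.8% in TET_KO. The gains were 9.64 and 12.97 points (adjusted p = 0.057), and the shares 10.4 and 24.97% (limma, adjusted p = 2.0e-04). Its start window had 0.716 and 3.33% in TET_WT and 47.7 and 59.3% in TET_KO. None of 39 Hox genes was called on either scale by limma. At any size past the adjusted p 8 had less and 1 more, against 15776 and 863 of all 20355 genes. Among those with less were Hoxc4 by -7.86 ± 1.56 and Hoxa9 by -5.96 ± 1.12. Against the library medians 8 neuroectoderm and 13 Hox genes had more, where 2234 of all 20355 genes did. The list medians were 9.05 and 9.24 points. Before centring these medians were -0.93 and -0.74 points, so the centred values are mostly the subtracted shift of -9.98 points.

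Of 28 mesoderm and endoderm genes 7 (25%, against 47.4% of all genes) had less and 0 more, at a median of -4.68 points. Without TET_WT D2 replicate 2, 5 had less, against 7703 of all 20355 genes. Tbx6 of the paraxial mesoderm differed by -21.3 ± 4.03 points and Ttr, the transthyretin gene of visceral endoderm and liver, by -18.9 ± 2.14. Msgn1, a factor of the presomitic mesoderm, had less in points and more as a share. It gained 38.3 points in TET_WT and 23.5 in TET_KO, which were 52.8 and 63.8% of the unmethylated part (limma, adjusted p = 0.032). Leaving out any 1 of 6 of the 12 libraries ended the share call, with differences from 9.48 to 11.9 percentage points. Primitive endoderm and trophoblast genes had less in 13 of 22 cases (59.1%, against 47.4% of all genes) and more in 0, at a median of -11.5 points. Centred on library medians 0 had less and 2 more, against 172 and 2234 of all 20355 genes. Lamc1 and Lama1, laminin genes of the basement membrane, differed by -17.2 ± 2.06 and -17.2 ± 2.07, and Gcm1, a trophoblast transcription factor, by -16.1 ± 2.16. The 2 share calls of this list were in the placental genes Tpbpa (26.8 and 44.1%) and Prl3d1 (29.6 and 44.9%), each with more. They are 9.09% of the list, against 13.0% of all genes with more.

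In the genes of the methylation machinery 13 of 25 (52.0%, against 47.4% of all genes) had less and 0 more, at a median of -10.2 points. Dnmt1 differed by -17.9 ± 2.23 points, Uhrf1 by -15.0 ± 1.86, Mbd1, a reader of methylated DNA, by -14.1 ± 2.18, and Ehmt1, a histone H3K9 methyltransferase gene, by -13.4 ± 1.75. The de novo enzyme genes Dnmt3a and Dnmt3b and their cofactor gene Dnmt3l gained 26.4, 25.6 and 20.8 points in TET_WT and 16.8, 16.001 and 15.2 in TET_KO. Tet1, Tet2 and Tet3 gained 28.0, 31.2 and 29.4 points in TET_WT and 19.12, 19.6 and 17.03 in TET_KO, and the extent of the deletions is not given in the sources used here. Of these 6 Tet2 and Tet3 alone reached the minimum of 10 points. Tet2 fell under it without TET_WT D2 replicate 2 (-9.77 points), and without TET_WT D2 replicate 3 Dnmt3a, Dnmt3b and Tet1 reached it (-10.5, -10.8 and -10.3). Dnmt3a also reached it without TET_KO D0 replicate 2 or TET_KO D2 replicate 2, at -10.07 points in both. As a share 1 machinery gene, Mbd1, had less (4% of the list, against 1.55% of all genes), with 33.5 and 22.1%. This call was lost without TET_WT D2 replicate 2 or TET_KO D2 replicate 3 (-8.88 and -9.90 percentage points). Of 28 ubiquitously expressed genes 12 had less and 0 more, led by Polr2a, the large subunit gene of RNA polymerase II, at -18.4 ± 2.16, and Gusb, a lysosomal glucuronidase gene, at -17.9 ± 1.95. A list of housekeeping genes thus had a share of calls, 42.9%, near that of all genes.

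Genes of the 2-cell-like state have near-identical copies, so reads may be placed on the wrong member. Of 26 listed, 6 (23.1%, against 47.4% of all genes) had less and 0 more in points. As a share 1 had less and 5 more, against 1.55 and 13.0% of all genes, with a median difference of 6.53 percentage points against -1.80. Leaving out TET_WT D2 replicate 2 gave 4 with less in points and, as a share, 1 with less and 9 more. Over all 20355 genes these counts were 7703, 122 and 3407. Pramel7, a PRAME family gene of the inner cell mass, had the largest deficit of all genes in points. It went from 24.7, 25.9 and 23.3% to 69.2, 67.1 and 73.0% in TET_WT, and from 75.2, 69.6 and 71.9% to 86.6, 86.1 and 83.8% in TET_KO. The difference was -31.9 ± 2.40 points (limma, adjusted p = 7.9e-07), measured in 1 window. Its neighbour Pramel6 differed by -26.0 ± 2.94. Gm4340 and Usp17ld were among the share calls with more, at 19.9 and 45.8% and at 27.9 and 49.3%.

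**Figure D4:**
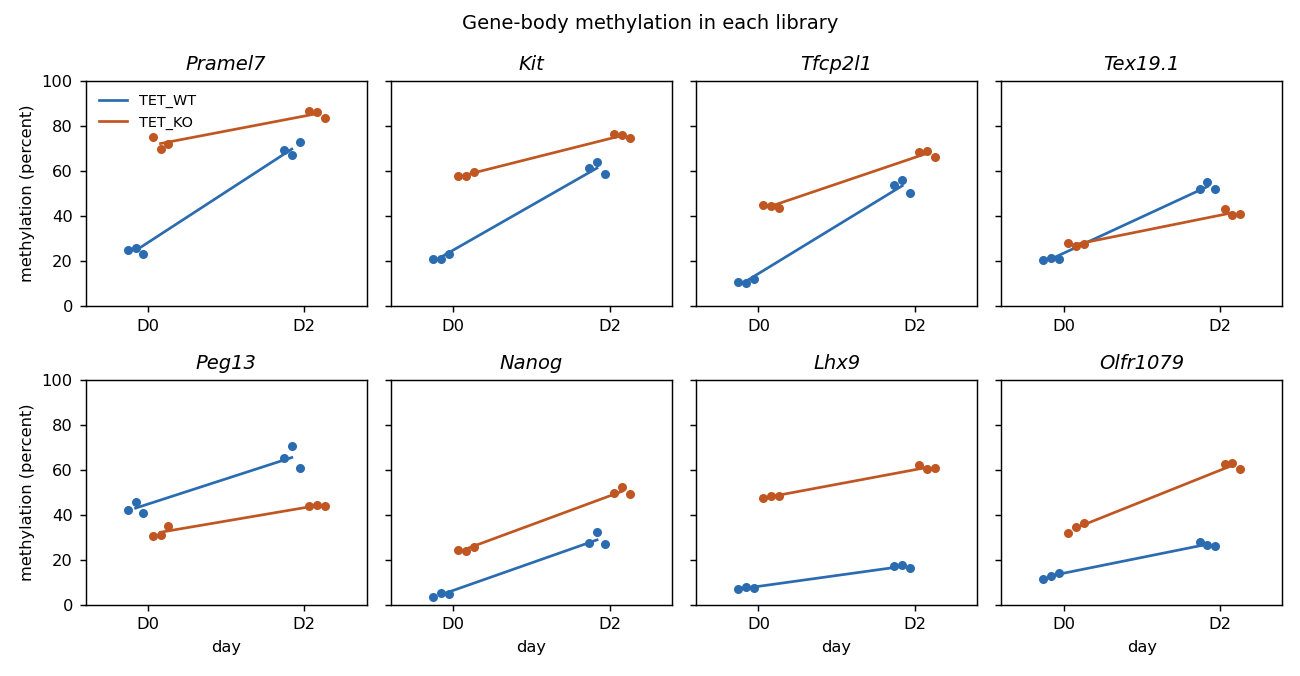
Methylation of the gene body in percent on D0 and D2 in each TET_WT and TET_KO library for 8 genes, with lines through the group means. Pramel7, Kit and Tfcp2l1 rise more steeply in TET_WT, Tex19.1 crosses, Peg13 is lower in TET_KO on both days, Nanog runs parallel, and Olfr1079 rises more steeply in TET_KO (13.8 points more).

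Outside the lists, the largest deficits in genes of at least 2 windows were in Apoc4, an apolipoprotein gene, at -31.3 ± 2.62 points, Sdr9c7, an epidermal dehydrogenase gene, at -29.7 ± 2.61, and Gjb5, a connexin gene, at -29.5 ± 2.10. Gpr151, a receptor gene of the habenula, and Fabp6, a bile acid carrier gene of the ileum, followed at -28.2 ± 2.77 and -27.3 ± 2.11. As a share the largest deficit among them was in Zfp951, a zinc finger gene, which went from 42.3 to 70.8% in TET_WT and from 54.3 to 65.4% in TET_KO, with shares of 49.5 and 24.2%. The largest excesses in points among such genes were in Olfr1079 at 13.8 ± 1.93, Olfr808 at 13.5 ± 3.04, Obox2, an oocyte homeobox gene, at 13.2 ± 3.13, and Vmn2r104, a vomeronasal receptor gene, at 12.9 ± 1.86. Prl7a2 and Prl8a8, placental prolactin family genes, and Rgs21 had 12.8 ± 2.38, 12.2 ± 2.52 and 12.7 ± 2.06. Slitrk6, a neuronal membrane protein gene, and Prl3a1 were among the largest excesses as a share, at 18.3 against 45.6% and at 25.3 against 52.0%.

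Large receptor families had a larger percentage of genes called with an excess than any of the lists, on both scales. Olfactory receptor genes, 1099 in number, detect odours and lie in clusters of CpG-poor DNA. In points 114 (10.4%) had more and 85 (7.73%) less, against 1.09 and 47.4% of all genes. As a share 814 (74.1%) had more, against 13.0% of all genes. Their median levels went from 18.997 to 39.7% in TET_WT and from 44.4 to 68.1% in TET_KO, with median shares of 24.9 and 42.1%. Of 304 vomeronasal receptor genes, which detect pheromones, 39 (12.8%) had more and 20 (6.58%) less in points, and 194 (63.8%) had more as a share. Both families had positive medians, at 2.76 and 3.28 points, and these were 12.7 and 13.3 after centring on library medians. Without TET_WT D2 replicate 2, 216 olfactory and 64 vomeronasal genes had more in points and 895 and 229 as a share. Over all 20355 genes 434 had more in points and 3407 as a share. Neighbouring genes of these families can share a window, so the genes are not separate measurements. Of the 1304 olfactory windows 56.2% had more as a share, against 16.5% of other windows. Of the 603 vomeronasal windows 50.9% did, against 16.6%. Members of these families are close in sequence, which leaves the mapping of single genes uncertain.

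Set beside other windows of the same length, the olfactory and vomeronasal families lay nearer to the rest in points. Olfactory receptor windows of 8 to 16 kb had a median difference of 3.75 points against 0.80 in other windows of that class, and 65.4% of them had more as a share against 54.3%. At 4 to 8 kb these were -3.06 against -10.4 points and 29.8 against 11.3%. Vomeronasal windows of 8 to 16 kb had 4.39 against 0.82 points, with 56.6 against 54.4% called with more as a share. Windows of zinc finger genes named Zfp went the other way at that length, with -7.82 against 0.87 points and 21.9 against 54.6%. Over all lengths Zfp windows had -10.05 against -8.97 points. Windows of 2 to 4 kb had -0.18 points in clustered protocadherins and -2.07 in histone genes, against -13.4 in the rest. Over all lengths these were 0.042 and -1.09 against -8.98, so both lay further off at 2 to 4 kb. Under 2 kb both lay nearer to the rest, as did histone windows of 4 to 8 kb. Neighbouring windows are not independent, and these differences were not tested.

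Of 386 Zfp genes 151 (39.1%) had less and 0 more in points, and of 362 solute carriers 197 (54.4%) and 0, against 47.4 and 1.09% of all genes. Clustered protocadherins, cell surface proteins of neurons, had 0 of 57 called in points. At any size past the adjusted p in limma 11 had less and 8 more, against 15776 and 863 of all 20355 genes. Their median was 0.20, and it was 1.44 without TET_WT D2 replicate 2. Ribosomal protein genes had less in 14 of 92 cases and histone genes in 5 of 67, with medians of -1.24 and -1.09 points. Keratin genes had less in 24 of 53 (45.3%). Defensin genes had less in 11 (18.03%) and more in 1 of 61 in points and more in 24 (39.3%, against 13.0% of all genes) as a share, with a median share difference of 9.54 percentage points. When TET_WT D2 replicate 2 was left out they had less in 6 and more in 4 in points, and more in 31 as a share. Over all 20355 genes these counts were 7703, 434 and 3407. Homeobox genes had less in 2 of 88. Relative to the library medians all 10 families except solute carriers (-0.83) had positive medians, from 0.78 in keratins upward, against 0.36 in all genes. Ribosomal protein, histone and homeobox genes had 8.74, 8.89 and 8.84 points, and -1.24, -1.09 and -1.15 before centring. Their centred values are mostly the subtracted shift of -9.98 points.

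**Figure D5:**
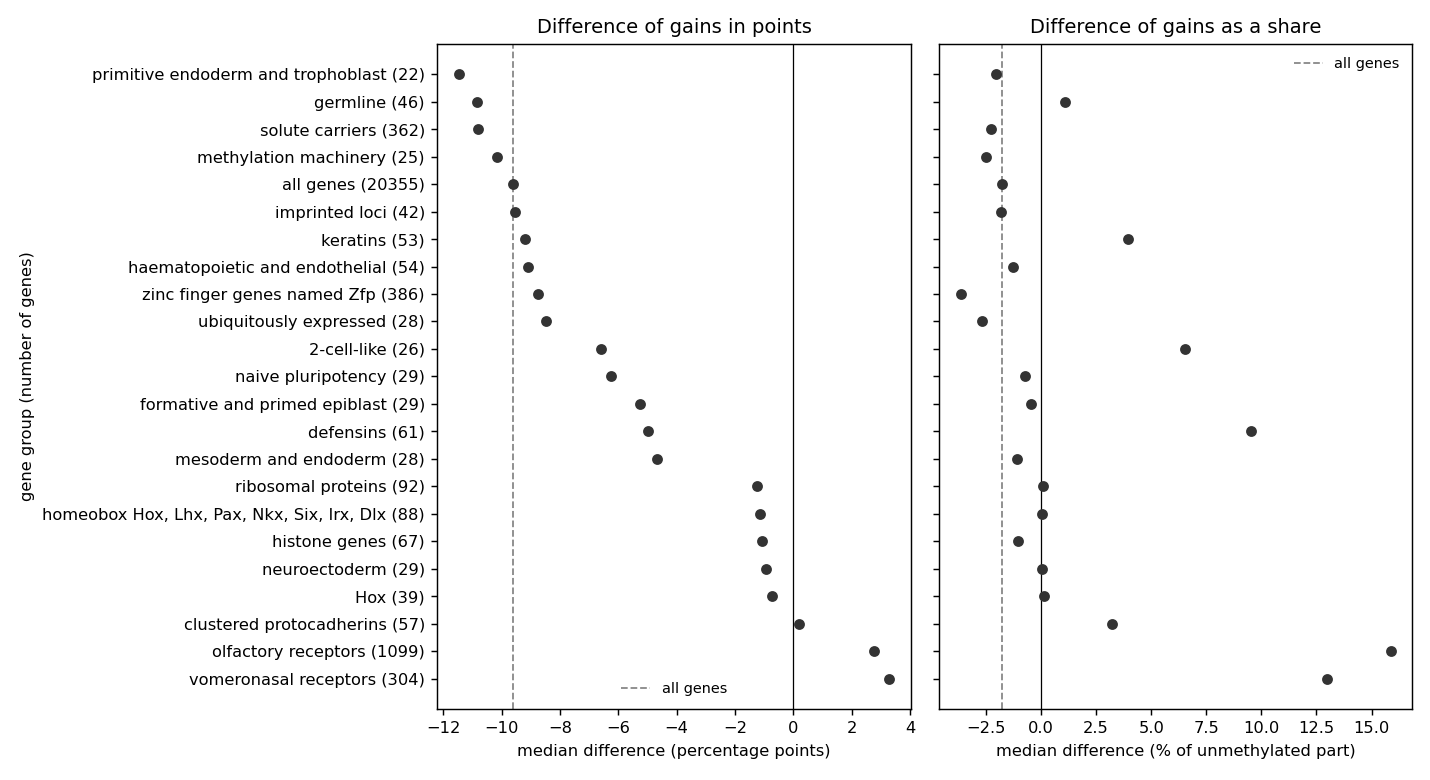
Median difference of gains (TET_KO minus TET_WT) of 12 gene lists and 10 gene families, in percentage points (left) and as a percent of the part unmethylated on D0 (right), with all genes as a dashed line. Most groups lie between the dashed line and 0 in points, while olfactory and vomeronasal receptors lie above 0 in points (2.76 and 3.28) and highest in share (15.9 and 13.0).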

How the data were processed

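Whole-genome bisulfite libraries of TET_WT, TET_KO and DNMT_WT cells on D0, D1 and D2 were used, 27 in all, with 3 per group. The authors deposited a single table of methylation in percent per window, without read counts, so the depth behind a value is unknown. Reads were handled with Trim Galore 0.6.6, cutadapt 2.3 and Bismark 0.23.0 on GRCm38, per the submitters' processing notes. How windows were filled and which coverage was required is not given in the sources used here.

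From the percentages, autosomal windows with a value in all 27 libraries were kept. The interaction of line and day was fitted with limma 3.58.1 (R 4.3.3, with files read by version 1.17.8 of the data.table package) over the 12 D0 and D2 libraries of TET_WT and TET_KO, with a mean-variance trend and Benjamini-Hochberg adjustment over all windows, genes or classes. The 12-library fit was preferred to one over 27 libraries, whose pooled spread is smaller than that of TET_WT on D2. The share was tested on log2(100 less percent, plus 1), in windows with at least 10 points unmethylated on D0 in both lines. Means over the genome were compared by exact permutation of the 3 against 3 libraries. Each later library entered as its gain over its line's mean of the earlier day. The spread of the earlier day therefore does not enter these p-values. Genes were matched to RefSeq (GRCm38.p6) by symbol, and a gene value is the mean of the windows overlapping it. Figures and tables were made with matplotlib 3.10.9, pandas 2.3.3, numpy 2.4.6 and scipy 1.17.1 in Python 3.11.15.

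Named genes were up to 4 called members per list by difference in points and up to 2 by share, and over all genes of at least 2 windows up to 10 in each direction in points and 5 by share. The windows named had the largest called differences with no overlap between lines. Tet, Dnmt and Uhrf1 genes, Nanog and Esrrb could always be named. A gene that the rule names is not reported here. The runs with less gain, the genes whose starts are shown and Hox genes without a call were chosen after their values were seen. Members and lists were chosen with earlier results of these data known.

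Same-numbered replicates did not deviate together: the correlations of their residuals ran from -0.0259 to 0.0602 over 18 pairs, so numbers were not used as pairs. On simulated data with 50 changed windows per size, differences of 10, 15, 20 and 30 points were called in 7, 18, 32 and 46 windows, and none in the wrong direction. Few of the 50000 simulated windows were changed, and their noise held no shift shared by a library. In the real data 47.4% of windows were called, so these detection rates do not carry over. Alternatives covered the libraries fitted, centring, minimum size, window filters, pseudocount, gene measure, and leaving out each library.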

Additional observations from a re-analysis of the deposited data

Results flagged for a closer look

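Each value here is a difference between the gains of the lines that passed its own test of that difference in limma. In points, 190891 windows and 9649 genes gained less in TET_KO, and 9313 windows and 221 genes gained more. As a share of the part unmethylated on D0, 3730 windows and 315 genes gained less, and 70134 windows and 2648 genes gained more. By class of length, windows of 1 to 2 kb differed by -5.43 points, those of 2 to 4 kb by -13.1 and those of 4 to 8 kb by -9.92. As a share, windows of 8 to 16 kb differed by 14.2 percentage points and windows over 16 kb by 15.2.

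In 4 windows TET_WT rose and TET_KO fell, each by the test within its own line. They lie at chromosome 1, 48546178 to 48547039 and 103117389 to 103119316, chromosome 4, 74504656 to 74506016, and chromosome 10, 45516952 to 45523505, and none overlaps a protein-coding gene. The differences of gains were -26.0, -46.2, -32.6 and -32.8 points. In the window with the largest of these, TET_KO libraries had 76.8, 84.8 and 82.2% on D0 and 68.7, 85.5 and 48.6% on D2, so its replicate 2 did not fall.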

How the results depend on the processing

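Percentages without counts, 3 libraries a group, replicates not stated to be separate cultures and 1 line per genotype limit every value here. The genome difference in points kept its direction under every alternative run. The class deficits from 1 to 8 kb kept direction and threshold under every other fit run, but less the shift of library medians they were 4.56 (1 to 2 kb), -3.07 (2 to 4 kb) and 0.0618 points (4 to 8 kb). Centring each library on its median gave 33738 windows with less and 78209 with more in points, and 172 and 2234 genes. A minimum of 5 points gave 16825 windows with more, 14990 genes with less and 801 with more, and as a share 2562 genes with less. A minimum of 20 gave 33884 windows with less and 40 with more, 172 genes with less and 1 with more, and as a share 844 windows with less, 30716 with more, 8 genes with less and 529 with more. The fit over 27 libraries gave 9118 windows with a smaller and 109397 with a larger share. It brought past the threshold the classes under 1 kb (-0.165 points), over 16 kb (3.59 points), 1 to 2 kb (-3.59 percentage points of share), 4 to 8 kb (4.62) and outside genes (6.75). Weighting by length gave a genome share difference of 7.33, and the median over windows a D1 to D2 share difference of 1.41. The cause was not tested in any of these.

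In the shortest window 2337 genes had less in points, and 49 had a smaller and 1055 a larger share. In the start window 2165 had less in points, and 97 had a smaller and 1285 a larger share. Among the 16354 genes of at least 3 windows 11 had more in points and 974 a larger share. Over all 20355 genes these counts were 221 and 2648. The shortest window turned Cdh2 (0.595 points), Ehmt1 (1.26), Esrrb (0.323), Lamc1 (0.208), Nr5a2 (0.187, and 0.190 as a share), Polr2a (0.370), Sgce (3.94), Tet3 (0.337), Tfcp2l1 (0.909), Tubb3 (0.279), Uhrf1 (0.673) and, as a share, Spry4 (-0.402). The start window turned Lef1 (1.36), Polr2a (0.370), Tet3 (0.644), Tfcp2l1 (0.909) and Tubb3 (0.279). None of the turned values passed the test, with adjusted p from 0.30 to 0.90 in limma. The start windows of Polr2a, Tfcp2l1 and Tubb3 had group means of at most 2.56%, so neither line gained much there. Of 76 named gene values 66 kept their call whichever library was left out. The other 10 were Dnmt3a, Dnmt3b, Tet1, Tet2 and Tubb3 in points and Mbd1, Msgn1, Pdha2, Peg3 and Spry4 as a share.

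In windows of the same D0 bin in both lines, whose starts were not matched from 10 to 80%, binning by D0 replicate 2 brought bins from 40 to 80% past the threshold (-4.94, -4.83, -4.76 and -5.61 points) and gave a share difference of 1.17 at 20 to 30%. Binning by replicate 3 gave share differences of 0.0152 at 0 to 10%, 0.730 at 60 to 70% and 0.717 at 70 to 80%, where the main values were negative.

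Leaving out 1 library at a time, the genome difference ran from -9.31 to -6.84 points and from 1.51 to 4.82 as a share. The D0 to D1 step ran from -1.31 to 0.291 points and 3.77 to 6.16 as a share, and the D1 to D2 step from -8.98 to -6.51 points and -2.38 to 1.31 as a share. Windows with less ran from 165186 to 208486 and with more from 6959 to 16409, and by share from 1794 to 5336 and from 47893 to 104543. Genes with less ran from 7703 to 10871 and with more from 154 to 434, and by share from 122 to 815 and from 2242 to 3407. In points the classes ran from -0.225 to -0.117 under 1 kb, -1.15 to 1.77 at 8 to 16 kb and 2.55 to 5.38 above. As a share they ran from -4.31 to -2.66 at 1 to 2 kb, -3.09 to 0.111 at 2 to 4 kb, 3.10 to 6.79 at 4 to 8 kb, -1.82 to 1.27 in genes and 5.34 to 8.89 outside. Without replicate 2 of TET_WT on both D0 and D2, chosen after seeing the data, 15909 windows and 431 genes had more in points, and 2087 windows and 129 genes a smaller share.

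With the replicate number as a block, 191170 windows had less and 9366 more in points, with 3455 and 68431 as a share, and 9649 and 222 genes, with 318 and 2749 as a share. No count moved by over 1.5 times.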

Other observations

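The 18560 windows of the X chromosome, not part of the autosomal comparison, went from 27.3% ± 0.403 to 51.1% ± 2.72 in TET_WT and from 52.0% ± 1.17 to 72.0% ± 1.22 in TET_KO (SD, n = 3). The gains were 23.8 and 19.96 points, a difference of -3.88, and the shares of the part unmethylated on D0 were 32.8 and 41.6%. These values were not tested.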
